A study of Mus musculus with 6 samples.

Results

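The type 2 vomeronasal receptors (V2Rs) described here are the 42 genes whose symbol is Vmn2r followed by a number of 73 or higher, leaving out Vmn2r88, Vmn2r89, Vmn2r111, Vmn2r112 and Vmn2r114 to Vmn2r117. They are 42 of 121 numbered V2R genes and of 38561 genes in the deposited table. Male CD-1 mice, an outbred stock for which the labels name no genetic change, were exposed to pups or to a control whose nature the labels leave unsaid. Vomeronasal organs were dissected, and RNA was recovered from their lysates by precipitating ribosomal protein S6 in its phosphorylated form. There were 3 libraries of each kind, called control libraries and pup libraries here, and no library of total RNA was analysed here. The age of the males, the length of the exposure and the number of organs behind a library were not given in the sources used here.

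V2Rs are G protein-coupled receptors with a large extracellular domain that binds peptides and proteins, and they are carried by sensory neurons in the basal layer of the vomeronasal epithelium. Their genes lie in tandem clusters, and a basal neuron typically expresses a single V2R of the A, B or D families together with broadly expressed family C V2Rs. S6 is phosphorylated in recently active neurons, so ribosomes precipitated through it carry more RNA from such cells. In these bulk libraries fewer neurons of a type and less RNA per neuron cannot be told apart.

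Vmn2r124, Vmn2r92, Vmn2r96 and Vmn2r83 had mean levels 2.64 to 4.68 times higher in the pup libraries at an unadjusted p under 0.05 in edgeR, and 0 receptors were lower at that p. Of all genes tested 6.31% were higher and 4.67% lower at that p, and without pup replicate 2 only Vmn2r92 of the 4 met it. With Benjamini-Hochberg adjustment across the whole table, the quasi-likelihood test of edgeR called 0 of the 35 receptors tested in either direction at a threshold of 0.05, and 0.0% of all genes tested in each direction. The smallest adjusted p among the receptors was 0.405. The most abundant receptors, Vmn2r105, Vmn2r81, Vmn2r121 and Vmn2r73, had log2 fold changes of 0.02 to 0.62 with overlapping groups, and those of Vmn2r105 and Vmn2r73 were below 0 in some of the alternatives tried.

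By position the 42 genes formed 8 groups more than 2000000 bases apart on GRCm38, with GENCODE M21 gene models. Chromosome 17 held a run of 22 receptors from 17703747 to 20596423, Vmn2r113 at 22942984 to 22965658, and Vmn2r118 and Vmn2r120 between 55590370 and 57545505. Chromosome 10 held Vmn2r80 to Vmn2r83 (79148769 to 79493585) and Vmn2r84 to Vmn2r87 (130377925 to 130497396). Chromosome 7 held Vmn2r73 to Vmn2r79 (85850673 to 87044941), the X chromosome Vmn2r121 (124124961 to 124135952) and chromosome 4 Vmn2r125 (156344200 to 156355905). The annotation gives 41 as protein coding and Vmn2r125 as an unprocessed pseudogene. Exons of Vmn2r107 overlapped AC154379.1 on the same strand and those of Vmn2r110 overlapped Gm5145 on the opposite strand, so reads of these pairs may not be separable.

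The median nucleotide identity over the 820 pairs of coding sequences was 67.56%, and 36 pairs exceeded 90%. The closest relative of a receptor within the set stood at 67.83% (Vmn2r120) to 98.53% (Vmn2r91 with Vmn2r92). Within the long chromosome 17 run the median was 86.0%, against 65.9% between that run and the other receptors. The highest identity of each receptor to a family C V2R was 56.19% to 57.83%. The stretches printed here are examples of bases that separate the receptors the results turn on from close relatives, since reads can be assigned only where the genes differ. Each is a window of 90 bases within a coding exon, chosen for differences between the first 2 genes named. The windows are read 5′ to 3′ on the coding strand of GRCm38 from GENCODE M21 transcripts. They align without gaps across the 3 genes of a set, and other windows may hold more differences between the first 2 genes. Capitals mark positions at which the 3 genes are not all alike.

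The first set is Vmn2r92 (chr17:18185053-18185142, plus strand), Vmn2r91 (chr17:18136530-18136619, plus) and Vmn2r124 (chr17:18074107-18074196, plus) in coding exon 6.
Vmn2r92: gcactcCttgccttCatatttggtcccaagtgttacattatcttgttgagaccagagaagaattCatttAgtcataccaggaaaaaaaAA
Vmn2r91: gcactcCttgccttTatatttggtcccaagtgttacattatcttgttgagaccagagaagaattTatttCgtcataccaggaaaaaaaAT
Vmn2r124: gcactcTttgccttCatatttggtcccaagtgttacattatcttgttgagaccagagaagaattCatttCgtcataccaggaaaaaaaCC
Vmn2r91 and Vmn2r124 each differed from Vmn2r92 at 4 of these 90 bases. Over the coding sequence Vmn2r124 was 93.1% identical to Vmn2r92. The longest stretch without a difference between Vmn2r91 and Vmn2r92 was 568 bases. Of the 50-base words of the Vmn2r91 coding sequence 63.95% occurred in Vmn2r92, and of those of Vmn2r124 11.25% did.

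The second set is Vmn2r96 (chr17:18573423-18573512, plus), Vmn2r97 (chr17:18914349-18914438, plus) and Vmn2r98 (chr17:19053520-19053609, plus) in coding exon 1.
Vmn2r96: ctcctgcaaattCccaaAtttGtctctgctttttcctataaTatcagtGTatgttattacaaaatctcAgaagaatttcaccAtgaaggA
Vmn2r97: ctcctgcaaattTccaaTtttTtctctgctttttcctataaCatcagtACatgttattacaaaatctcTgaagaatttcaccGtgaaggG
Vmn2r98: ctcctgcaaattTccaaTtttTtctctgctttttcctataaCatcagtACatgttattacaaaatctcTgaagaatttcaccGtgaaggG
Vmn2r97 and Vmn2r98 were identical in this window, against 94.94% identity over the coding sequence, and differed from Vmn2r96 at 9 positions. Over whole coding sequences 12.71% of the words of Vmn2r97 occurred in Vmn2r96, and 28.11% of those of Vmn2r96 occurred in the pseudogene Vmn2r-ps117.

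The third set is Vmn2r121 (chrX:124132591-124132680, minus strand), Vmn2r88 (chr14:51414012-51414101, plus), which is outside the set of 42, and Vmn2r84 (chr10:130391097-130391186, minus) in coding exon 3.
Vmn2r121: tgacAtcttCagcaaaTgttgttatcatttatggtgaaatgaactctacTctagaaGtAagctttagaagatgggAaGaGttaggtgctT
Vmn2r88: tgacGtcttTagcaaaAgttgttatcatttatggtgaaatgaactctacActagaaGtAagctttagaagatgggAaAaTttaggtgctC
Vmn2r84: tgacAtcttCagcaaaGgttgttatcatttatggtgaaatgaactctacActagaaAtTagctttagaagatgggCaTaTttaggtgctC
Vmn2r88 differed from Vmn2r121 at 7 of the 90 bases and Vmn2r84 at 8. Over the coding sequence Vmn2r84 was 88.82% identical to Vmn2r121. Vmn2r121 and Vmn2r84 to Vmn2r87 were 88.38% to 93.78% identical to Vmn2r88 over the coding sequence, and the other receptors reached at most 70.97%.

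Library totals were 10590716 to 11240065 counts in the control group and 18199476 to 20871266 in the pup group, so depth was separated by group. The 42 receptors held 1872 to 4273 and 6667 to 13451 of those counts. Levels are given as CPM, counts relative to library sizes scaled by TMM (trimmed mean of M values), whose factors ran from 0.605 (control replicate 3) to 1.39 (pup replicate 2). Gnao1, the G protein subunit of basal neurons, was present in every library at 37.0 to 107 CPM. The 6 basal neuron markers summed to 381 to 577 CPM in control and 410 to 543 CPM in pup libraries. Most of that sum was Calr4 (410, 397 and 238 CPM in control, 289, 300 and 252 CPM in pup libraries). Of the 6 markers 4 had a log2 fold change above 0 and 2, Calr4 among them, below it. Summed markers were lower in every pup library for sustentacular cells (3646 to 4327 CPM, then 1429 to 2169), red blood cells (205 to 591, then 52.6 to 168), endothelium (68.4 to 81.7, then 22.4 to 26.9) and immature neurons (113 to 187, then 50.4 to 96.5). The endothelial sum followed S1pr1 (63.4 to 71.3 CPM, then 11.5 to 16.96), while 4 of the 5 endothelial markers had a log2 fold change above 0. Summed apical neuron, mature neuron, nasal gland and macrophage markers overlapped between groups, and no marker was at 0 in all libraries. The part of these cell types and of depth in the results was not tested.

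**Figure D1:**
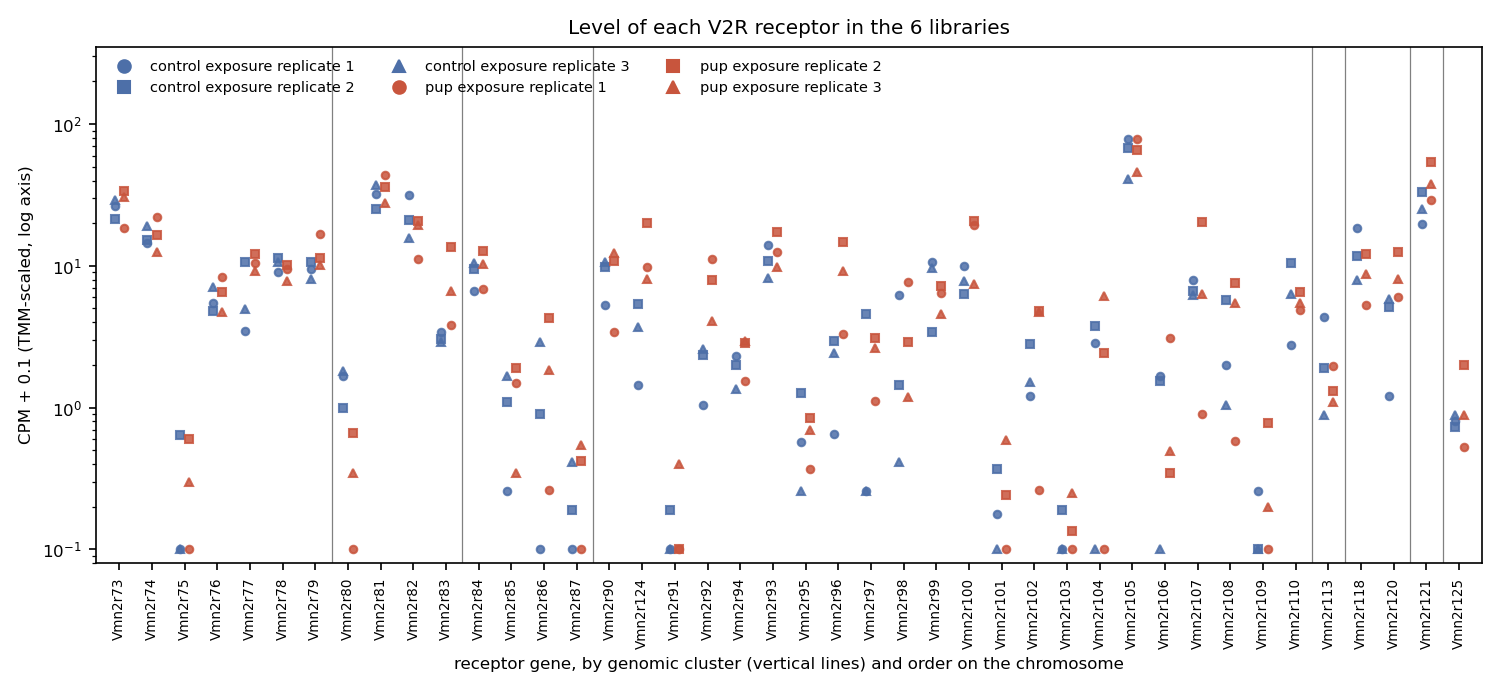
Level of each of the 42 receptors in the 6 libraries as TMM-scaled CPM plus 0.1 on a log axis; blue symbols are control and red symbols pup libraries, the shape gives the replicate, and vertical lines separate genomic groups. Vmn2r105 is highest in all 6 libraries, at 40.8 to 78.2 CPM, and most receptors have overlapping red and blue symbols.

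The receptors differed widely in level, and the 5 most abundant all had overlapping groups. Vmn2r105 had 78.2, 67.6 and 40.8 CPM in the control libraries and 78.1, 65.7 and 46.2 CPM in the pup libraries. It was the highest receptor in all 6 and took 13.8% to 23.4% of the counts of the set. Its log2 fold change was 0.02 (SE 0.38, 95% interval -0.81 to 0.86), and it was below 0 with RLE size factors, in DESeq2, and without control replicate 3 or pup replicate 1.

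Vmn2r81 had 32.2, 25.02 and 36.9 CPM in control and 44.0, 35.8 and 27.5 CPM in pup libraries (log2 fold change 0.19, SE 0.36). Vmn2r73 had 26.3, 21.2 and 29.2 CPM, then 18.5, 33.8 and 30.5 CPM (0.11, SE 0.38, below 0 without control replicate 2 or pup replicate 2). Control and pup libraries were interleaved in Vmn2r81, and in Vmn2r73 the control libraries all lay inside the pup range. Vmn2r82 had 31.4, 20.9 and 15.6 CPM, then 11.1, 20.6 and 19.3 CPM (-0.42, SE 0.43), with the highest value in control replicate 1 and the lowest in pup replicate 1. Vmn2r74 averaged 16.2 ± 2.52 CPM in control and 16.9 ± 4.79 CPM in pup libraries (SD, n = 3 each). Vmn2r93 averaged 10.9 ± 2.96 and 13.1 ± 3.79 CPM (SD, n = 3 each), and both genes had overlapping groups.

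Coding lengths were 2454 to 2658 bases, while the annotated exons of a gene covered 2571 to 26506 bases. Per kilobase of annotated exon the highest levels were those of Vmn2r81 (9.99 CPM per kb), Vmn2r105 (6.31), Vmn2r121 (5.86), Vmn2r82 (3.43) and Vmn2r73 (2.71), the same 5 genes as by CPM. Vmn2r124, with 14.8 kb of annotated exon, was 15th by CPM and 22nd per kilobase. The authors' gene models are not known, so this order may differ with theirs.

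Too low to test were 7 receptors, Vmn2r75, Vmn2r87, Vmn2r91, Vmn2r95, Vmn2r101, Vmn2r103 and Vmn2r109, with 5 to 58 counts over the 6 libraries and at most 21 in a library. Several are near copies of receptors that had enough counts to be tested. Vmn2r91 had 0, 1 and 0 counts in control and 0, 0 and 6 in pup libraries, whereas Vmn2r92 had 12, 25 and 16, then 208, 221 and 81. The 250 bases before the start codon were 98.0% identical between these 2 genes in RefSeq's GRCm38.p6 windows, which were found for 39 of the 42 receptors. Vmn2r103 had 0, 1 and 0 counts, then 0, 1 and 3, against 14, 30 and 9, then 3, 132 and 93, in Vmn2r102, which is 95.65% identical to it.

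The order of the 42 receptors by level was similar in all libraries. Spearman's rho across the 42 genes was 0.831 to 0.874 among control libraries, 0.807 to 0.921 among pup libraries and 0.774 to 0.931 between groups. These describe genes that share libraries and scaling, and genes are not independent replicates.

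Together the 42 receptors summed to 335, 335 and 293 CPM in control and 357, 476 and 334 CPM in pup libraries. The means were 321 ± 24.5 and 389 ± 76.3 CPM (SD, n = 3 each), and the groups overlapped because pup replicate 3 lay just under control replicates 1 and 2. Without Vmn2r105 the sums were 257, 267 and 252 CPM, then 279, 411 and 288 CPM, a ratio of means of 1.26, and the groups did not overlap. The overlap was thus narrow enough to be removed by leaving out a single receptor, and the others were not left out in turn. Their share of all V2R counts was 24.7%, 18.2% and 23.7% in control and 26.6%, 23.8% and 16.9% in pup libraries, which also overlapped. Vmn2r88 and Vmn2r65 were higher and Vmn2r116 lower in every pup library than in any control library. Leaving these out of the denominator gave 29.46%, 20.6% and 27.0%, then 42.9%, 34.2% and 29.53%. The lowest pup share then stood barely above the highest control share. Those receptors were picked with earlier results of these data known, so this step by construction removes counts that differ between the groups. The other 76 V2Rs summed to 802, 1289 and 789 CPM, then 476, 918 and 797 CPM.

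The long chromosome 17 run summed to 148, 148 and 102 CPM in control and 163, 215 and 137 CPM in pup libraries, a ratio of means of 1.30. The ratio was 1.13 for the chromosome 7 group, 1.04 for Vmn2r80 to Vmn2r83 and 1.22 for Vmn2r84 to Vmn2r87. Control and pup libraries overlapped in each of these 4 groups.

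Among single receptors, 28 of the 35 tested had a log2 fold change above 0 and 7 below it, where 51.5% and 48.5% of all genes lay on those sides. The median was 0.38, beside 0.19 over 62 other V2Rs and 0.03 over all 15498 genes, and it was 0.13 without pup replicate 2. Of the 62 other V2Rs 41 were above 0 and 21 below it. At an unadjusted p under 0.05 in edgeR 4 receptors (11.4%) were higher and 0 lower, where 6.31% and 4.67% of all genes were. Without pup replicate 2 the count was 1, Vmn2r92. Control and pup libraries did not overlap in 6 receptors (17.1%), where 19.8% of all genes had such groups. These were Vmn2r83, Vmn2r92, Vmn2r96, Vmn2r120 and Vmn2r124, higher in the pup libraries, and Vmn2r80, lower. By direction, 5 receptors (14.3%) were separate and higher, where 1573 genes (10.15%) were, and 1 receptor (2.86%) was separate and lower, where 1488 genes (9.60%) were. Standard errors ran from 0.36 to 1.42 on the log2 scale, with a median of 0.61.

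DESeq2 called 0 of the receptors after adjustment, where 0.406% of all genes with an adjusted p were higher and 0.626% lower. Its unadjusted p was under 0.05 for the same 4 receptors as in edgeR, all higher, where 4.84% of all genes were higher and 4.68% lower. Limma-voom also called 0 after adjustment, where 0.00645% of genes were higher and 0.0452% lower. Its 4 receptors at an unadjusted p under 0.05 were Vmn2r92, Vmn2r96, Vmn2r120 and Vmn2r124, without Vmn2r83, where 5.1% of genes were higher and 5.43% lower.

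**Figure D2:**
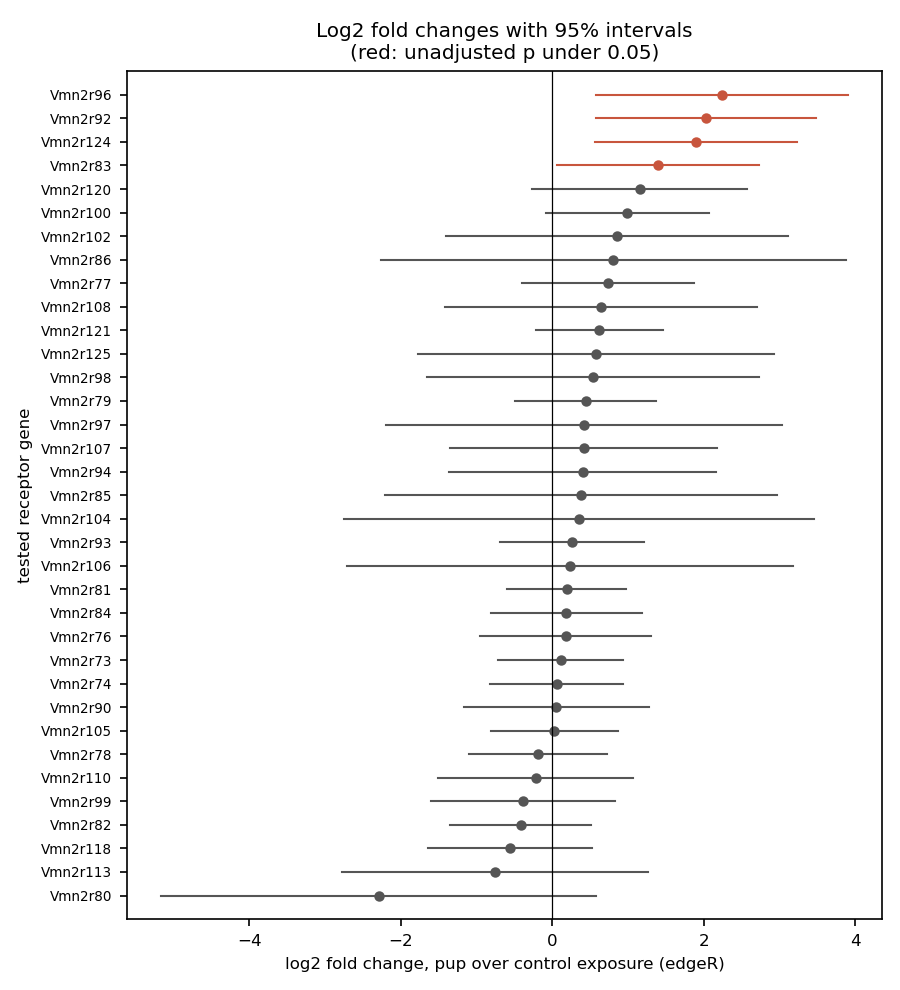
Log2 fold change of pup over control libraries for the 35 receptors tested, with 95% intervals from edgeR's quasi-likelihood test; red marks an unadjusted p under 0.05. The 4 red receptors lie between 1.40 and 2.24, and 28 points lie above 0 and 7 below it.

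Vmn2r124 (18049424 to 18079732), Vmn2r92 (18151887 to 18188886) and Vmn2r96 (18573151 to 18616003), all on the plus strand of chromosome 17, lie in the first part of the long run. Vmn2r92 had 0.94, 2.24 and 2.50 CPM in control and 11.2, 7.83 and 4.005 CPM in pup libraries. The pup values were all above the control values, and the ratio of means was 4.05. Its log2 fold change was 2.03 (SE 0.67, 95% interval 0.57 to 3.48), with an unadjusted p of 0.0104 and an adjusted p of 0.418 in edgeR. The unadjusted p stayed under 0.05 in all 14 alternatives, with log2 fold changes of 1.66 to 2.40. Its coding words were shared to 69.14% with other genes, mostly with Vmn2r91. Over its longest transcript the share was 32.03%.

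Vmn2r124 had 1.33, 5.29 and 3.59 CPM in control and 9.76, 20.1 and 8.01 CPM in pup libraries, without overlap. The log2 fold change was 1.89 (SE 0.61, interval 0.56 to 3.23), with an edgeR unadjusted p of 0.00934 and an adjusted p of 0.405. Without pup replicate 2, its highest library, the log2 fold change was 1.41 with an unadjusted p of 0.0674. Vmn2r96 had 0.55, 2.87 and 2.34 CPM, then 3.22, 14.6 and 9.10 CPM, with the lowest pup library close to the highest control library. Its log2 fold change was 2.24 (SE 0.76, interval 0.58 to 3.90), with an edgeR unadjusted p of 0.0126 and an adjusted p of 0.424. Without pup replicate 2 it was 1.70 with an unadjusted p of 0.0854. Control replicate 1 was the lowest library for all 3 receptors. Of the coding words 20.11% in Vmn2r124 and 41.37% in Vmn2r96 were shared with other genes. Over the longest transcript the shares were 5.47% and 20.45%.

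Receptors lying among these 3 had smaller values. Vmn2r94 and Vmn2r93, between Vmn2r92 and Vmn2r96, had log2 fold changes of 0.40 (SE 0.81) and 0.26 (SE 0.44) with overlapping groups, and Vmn2r91 and Vmn2r95 were not tested. Vmn2r90, the first gene of the run, had 5.17, 9.77 and 10.47 CPM in control and 3.32, 10.73 and 12.2 CPM in pup libraries. Vmn2r100, 89.89% identical to Vmn2r124, had 9.88, 6.19 and 7.66 CPM, then 19.3, 20.6 and 7.32 CPM. Pup replicates 1 and 2 stood above all control libraries and pup replicate 3 within them (log2 fold change 0.99, SE 0.49, edgeR adjusted p = 0.479). Whether these values differ from those of Vmn2r92, Vmn2r96 and Vmn2r124 was not tested.

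**Figure D3:**
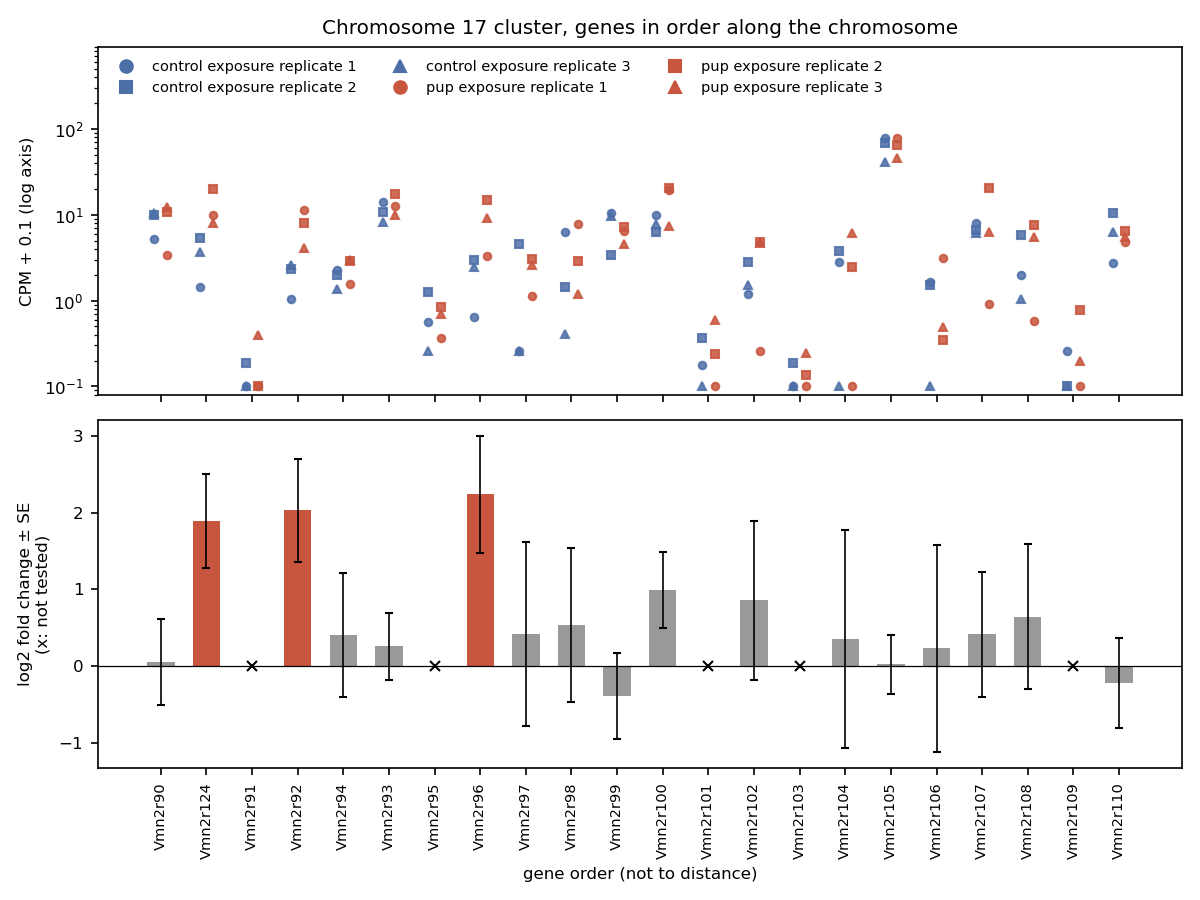
The 22 receptors of the long chromosome 17 run in their order along the chromosome: above, TMM-scaled CPM plus 0.1 in each library on a log axis; below, log2 fold change of pup over control libraries with its standard error, red for an unadjusted p under 0.05 and a cross for genes not tested. Vmn2r124, Vmn2r92 and Vmn2r96 stand at 1.89 to 2.24 near the left end, and the other 14 tested genes lie between -0.38 and 0.99.

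Further along the run, libraries of the same group differed by more than 10 times for several receptors. Vmn2r97 had 0.16, 4.48 and 0.16 CPM in control and 1.02, 2.98 and 2.52 CPM in pup libraries. Control replicate 2 exceeded the other 2 by up to 28.7 times, and the log2 fold change of 0.42 was 3.73 without it. Vmn2r98 had 6.11, 1.34 and 0.31 CPM in control and 7.61, 2.80 and 1.09 CPM in pup libraries, with replicate 1 highest in both groups. Pup replicate 1 was the lowest pup library for Vmn2r102 (0.16, 4.68 and 4.598 CPM), Vmn2r104 (0, 2.34 and 6.03), Vmn2r107 (0.80, 20.2 and 6.28) and Vmn2r108 (0.48, 7.51 and 5.34). It was the highest for Vmn2r106 (3.003, 0.25 and 0.40 CPM). Over the 35 tested receptors pup replicate 2 was the highest pup library in 23, and the highest library of a group exceeded the lowest by a median of 1.96 times in control and 2.09 times in pup libraries, over receptors above 0 throughout the group.

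Vmn2r105, Vmn2r99 and Vmn2r110 complete the named receptors of the run. Vmn2r99 had 10.504, 3.32 and 9.53 CPM in control and 6.33, 7.08 and 4.45 CPM in pup libraries (log2 fold change -0.38, SE 0.56). Vmn2r110 had 2.67, 10.401 and 6.25 CPM, then 4.77, 6.45 and 5.34 CPM. Its pup libraries all lay inside the control range. Its log2 fold change of -0.22 (SE 0.59) was above 0 with library totals only, in limma-voom and without control replicate 2. It was also above 0 with scaling to V2R counts, taken throughout without Vmn2r88, Vmn2r65 and Vmn2r116.

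On chromosome 10, Vmn2r83 (79468731 to 79493585, plus strand) was the fourth receptor at an unadjusted p under 0.05. It had 3.29, 2.96 and 2.81 CPM in control and 3.75, 13.6 and 6.58 CPM in pup libraries. The control values were close together and the pup values spread over 3.61 times. The log2 fold change was 1.40 (SE 0.61, interval 0.06 to 2.73), with an edgeR unadjusted p of 0.0415 and an adjusted p of 0.447. The unadjusted p was under 0.05 in 7 of 14 alternatives, and without pup replicate 2 the log2 fold change was 0.78 with a p of 0.298. Only 1.34% of its coding words occurred in another gene, the lowest share of the 4 receptors.

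Its neighbours Vmn2r80, Vmn2r81 and Vmn2r82 are 94.73% to 96.15% identical to one another and had 25.81% to 37.35% of their words in other genes. Vmn2r80 had 20, 10 and 11 counts in control and 0, 16 and 5 in pup libraries, or 1.57, 0.90 and 1.72 CPM, then 0, 0.57 and 0.25 CPM. Every pup value was below the control values, in libraries of unequal depth. The log2 fold change was -2.29 (SE 1.31, interval -5.16 to 0.58, edgeR adjusted p = 0.522), so no difference was detectable at this depth.

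Vmn2r121 on the X chromosome, the receptor most like Vmn2r88, had 19.8, 33.4 and 25.002 CPM in control and 28.8, 53.7 and 37.7 CPM in pup libraries. The groups overlapped through control replicate 2 and pup replicate 1. Its log2 fold change was 0.62 (SE 0.39, interval -0.22 to 1.46, edgeR adjusted p = 0.550). The ratio of Vmn2r121 to Vmn2r88 within a library was 0.299, 0.595 and 0.412 in control and 0.0653, 0.121 and 0.0539 in pup libraries, where the mean of Vmn2r88 was 8.68 times higher. Of the coding words of Vmn2r88 8.96% occurred in Vmn2r121, and 20.35% of those of Vmn2r121 occurred in the pseudogene Vmn2r-ps159. Vmn2r-ps159 had 15.1, 20.1 and 14.5 CPM in control and 38.2, 60.0 and 78.9 CPM in pup libraries, higher in each pup library, and its part in the values of Vmn2r121 was not tested.

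The other relatives of Vmn2r88 lie on chromosome 10 and were lower. Vmn2r84 had 6.58, 9.32 and 10.31 CPM in control and 6.76, 12.7 and 10.28 CPM in pup libraries (log2 fold change 0.19, SE 0.46, interval -0.81 to 1.18). Vmn2r85 and Vmn2r86 had group means of 0.90 to 2.04 CPM and log2 fold changes of 0.38 (SE 1.19, interval -2.20 to 2.97) and 0.81 (SE 1.41, interval -2.26 to 3.87). These intervals are wide enough to hold the value of Vmn2r92. Vmn2r84 to Vmn2r87 had 48.66% to 59.48% of their coding words in other genes. The pseudogene Vmn2r125 had 0.71, 0.63 and 0.78 CPM, then 0.43, 1.91 and 0.79 CPM, and 28.67% of the words of its transcript occurred in Vmn2r-ps159, whose part in these values was not tested either.

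**Figure D4:**
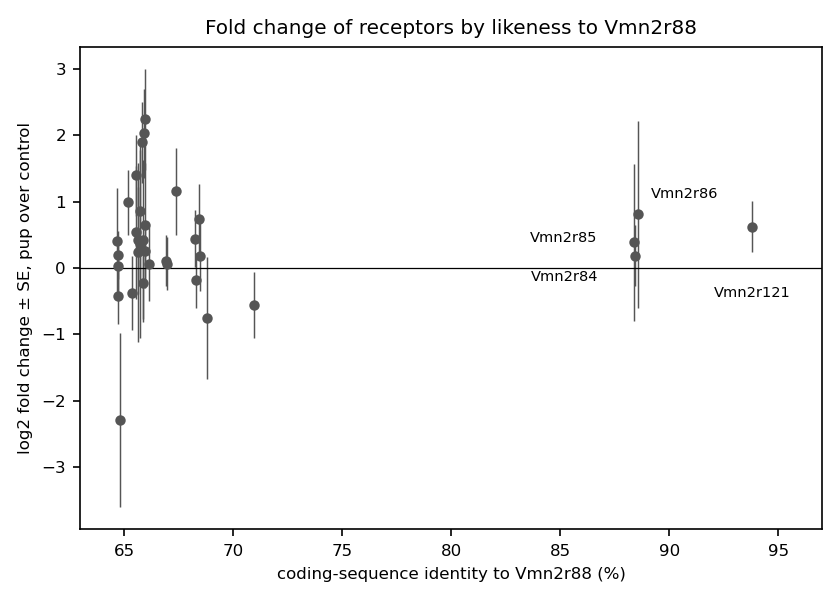
Log2 fold change of pup over control libraries with its standard error, against nucleotide identity of the coding sequence to Vmn2r88, for the tested receptors with a coding sequence. Vmn2r84, Vmn2r85, Vmn2r86 and Vmn2r121 stand apart at 88.38% or more with values of 0.19 to 0.81, and the highest and lowest values belong to receptors at 70.97% or less.

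The chromosome 7 receptors Vmn2r73 to Vmn2r79 had log2 fold changes from -0.19 (Vmn2r78) to 0.74 (Vmn2r77), and 0 of the 6 tested had an unadjusted p under 0.05. Vmn2r77 had 3.37, 10.58 and 4.84 CPM in control and 10.402, 11.9 and 9.05 CPM in pup libraries (SE 0.52, edgeR adjusted p = 0.595). Control replicate 2 lay inside the pup range and the other control libraries under it. Vmn2r78 had 9.01, 11.3 and 10.63 CPM, then 9.33, 10.09 and 7.71 CPM, and its value of -0.19 was above 0 with library totals only and with scaling to V2R counts. Vmn2r79, 95.91% identical to Vmn2r78, had a log2 fold change of 0.44 (SE 0.43). Vmn2r76 had 4.598 to 8.26 CPM over the 6 libraries, and no coding word of it occurred in another gene.

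Outside the long run on chromosome 17, Vmn2r120 had 1.10, 5.02 and 5.78 CPM in control and 5.90, 12.3 and 8.01 CPM in pup libraries. The groups were separate by a narrow gap between control replicate 3 and pup replicate 1. Its log2 fold change was 1.15 (SE 0.65, edgeR adjusted p = 0.521), and it was 0.70 without control replicate 1. Vmn2r118 had 18.5, 11.6 and 7.81 CPM, then 5.20, 12.007 and 8.60 CPM (-0.56, SE 0.49, edgeR adjusted p = 0.672), with overlapping groups.

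Vmn2r113 is 86.02% identical to Vmn2r116, a receptor for a peptide of male tears. It had 4.23, 1.79 and 0.78 CPM in control and 1.88, 1.204 and 0.99 CPM in pup libraries, with control replicate 1 above all others. Its log2 fold change of -0.76 (SE 0.92) was 0.06 without that library. Of its coding words 88.84% occurred in other genes, most of them in the pseudogene Vmn2r-ps128. Over its longest transcript 27.98% of words did, so its counts are uncertain to an extent that was not tested.

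The naming rule took all 7 receptors below 0 and those with the smallest p, so the other 15 tested receptors were above 0 by construction. Their log2 fold changes were 0.05 to 0.86 and their mean levels 0.875 to 10.96 CPM. Over the 41 receptors with a coding sequence, the median share of coding words found in another gene was 20.88%, with 12 receptors at 10% or less and 18 above 25%.

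Other genes came from a list of 34 drawn up for V2R neurons, of which 33 were tested and Trpc2 was not found under that symbol. Not all are confined to such neurons, since Pde4a was also on the apical neuron list. The list had 14 log2 fold changes above 0 and 19 below, with a median of -0.11, and edgeR called 0 after adjustment. At an unadjusted p under 0.05 there were 3 higher and 6 lower of the 33, where 6.31% and 4.67% of all genes were. The higher ones were Ano2, a calcium-activated chloride channel (1.07, SE 0.36), and the family C receptors Vmn2r3 (0.97, SE 0.38) and Vmn2r5 (1.87, SE 0.63). The lower ones were Kcnn3, a calcium-activated potassium channel (-3.37, SE 0.80), the family C receptors Vmn2r6 (-1.37, SE 0.51) and Vmn2r7 (-1.69, SE 0.54), and the non-classical MHC genes H2-M1 (-1.18), H2-M9 (-1.52) and H2-M10.4 (-1.44). Family C receptors thus stood on both sides. Gnao1 had a log2 fold change of 0.58 (SE 0.40), and Omp, a marker of mature sensory neurons, -0.19 (SE 0.38).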

How the data were processed

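The authors deposited whole-number read counts per Ensembl gene, not normalized, for 6 libraries. GRCm38 is named as genome build by the submitters' processing notes, while aligner, counter, strand setting and treatment of multi-mapped reads were not given in the sources used here. Per the labels' protocols, cDNA was made with a SMARTer low-input kit. No label says that libraries came from separate animals, so the p-values reflect spread among libraries that could be technical. Replicates of a group differed by more than sampling noise (chi-square over its degrees of freedom 94.0 to 323). GENCODE M21 symbols matched 36639 of 38561 IDs.

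All genes were fitted with edgeR 4.0.16 in R 4.3.3, using filterByExpr (minimum count 10, minimum total 15), TMM scaling, the quasi-likelihood test on group and Benjamini-Hochberg adjustment over 15498 genes at 0.05. The common biological coefficient of variation was 0.535, and the steps were tested on simulated data. Alternatives were RLE size factors, library totals, no filter, a stricter filter, DESeq2 1.42.0, limma-voom (limma 3.58.1), a replicate block and each library left out. Scaling to V2R counts, with those of Vmn2r88, Vmn2r65 and Vmn2r116 left out, was added after seeing the data. Shared words are exact 50-base words that also occur in transcripts of other genes, on either strand. Identity came from global alignment of coding sequences. Receptors named by rule were those called by any tool, the 8 with the smallest p in each direction (7 were lower) and the 8 with the highest mean CPM. Relatives and neighbours of these, and receptors with large differences between replicates, were added after their values were seen. Members and lists were chosen with earlier results of these data known.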

Additional observations from a re-analysis of the deposited data

How the results depend on the processing

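In edgeR with RLE size factors, library totals, no filter, a stricter filter, the replicate block, scaling to V2R counts (chosen after seeing the data) and each library left out, and in DESeq2 and limma-voom, 0 receptors passed the adjusted threshold in either direction and 0 were lower at an unadjusted p under 0.05. The count of 4 higher at an unadjusted p ran from 1 (without pup replicate 2) to 5 with single libraries left out. It was 5 with library totals only and 3 with the replicate block, which did not retain Vmn2r83. The median log2 fold change of 0.38 ran from 0.13 (without pup replicate 2) to 0.46 with single libraries left out and was 0.26 with the replicate block and 0.22 in limma-voom. It was 0.57 with library totals only, where the median of all genes was 0.31. With scaling to V2R counts, from which Vmn2r88, Vmn2r65 and Vmn2r116 were left out, it was 0.55 beside 0.24 over all genes. Over the 12 receptors with at most 10% shared coding words, a choice made after seeing the data, it was 0.20. The share of V2R counts in pup libraries was 22.4%, and 35.5% with Vmn2r88, Vmn2r65 and Vmn2r116 left out of the denominator, which by construction removes their counts. With single libraries left out it ran from 20.4% to 25.2% in pup and from 20.9% to 24.2% in control libraries, and the summed level from 346 to 417 and from 314 to 335 CPM. For the 20 receptors named by rule 15 of 279 values had the opposite sign, in Vmn2r73, Vmn2r74, Vmn2r78, Vmn2r105, Vmn2r110 and Vmn2r113. Same-numbered libraries had correlations of -0.04, 0.18 and 0.07 in their deviations from group means, so the numbers were not taken to pair libraries, and not every library correlated best with its own number. Standard errors were 1.31 to 1.42 for Vmn2r80, Vmn2r86, Vmn2r104 and Vmn2r106, which limits what could be detected. Vmn2r80 had few counts (0 to 20 in a library). Libraries ran from 0 to 119 counts for Vmn2r86, from 0 to 122 for Vmn2r104 and from 0 to 56 for Vmn2r106.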
